A study of Mus musculus with 28 samples.

Results

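The genes described here are 36 mouse genes of homologous recombination, the Fanconi anaemia pathway and the checkpoint that accompanies both. They were chosen by name, with earlier results of these data known. Each was matched by symbol to 1 Ensembl identifier among the 56748 identifiers counted in every library. The rule itself uses no measured value. Gene counts came from 28 libraries of total RNA depleted of ribosomal RNA. A set of 10 libraries, written below as HC11 DOX + DIP, were from HC11 cells labelled untransformed and treated with DOX and DIP; they are also called the DIP libraries. Another 8 libraries, written as 4T1 DOX, were from 4T1 cells labelled cancer and treated with DOX, and 10 libraries, written as HC11 DOX, were from untransformed HC11 cells treated with DOX alone. All 28 libraries therefore carry the DOX label. The labels spell out neither DOX nor DIP and name no dose, time, construct or clone. HC11 is an established line of mouse mammary epithelium that can be differentiated towards milk secretion, and 4T1 is an established mouse mammary carcinoma line. Nothing in the labels says that libraries of a group came from separate cultures, so the p-values measure only the spread between these libraries.

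Homologous recombination repairs broken DNA by copying an intact sister chromatid. The broken end is resected to a single strand, which BRCA2 and its partners prepare to invade the matching duplex. The Fanconi pathway handles crosslinks between the strands: a core complex ubiquitinates the FANCD2-FANCI pair, which directs nucleases to the lesion. The ATM and ATR kinases sense breaks and stalled forks and hold the cell cycle through CHEK2 and CHEK1. In mammary epithelium BRCA1 and BRCA2 are best known as tumour suppressors, and many of these genes are transcribed mainly in dividing cells.

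Many of the genes fell together in HC11 DOX + DIP, and their promoter windows were searched for short words that are known from promoters of cell cycle genes. The windows ran from 250 bases before to 50 bases after the RefSeq start, on build GRCm38.p6, and 28 of the 36 genes had at least 1 window, giving 30 windows. Words were searched on both strands: TTTCCCGC, TTTGGCGC, TTTCGCGC and TTTGCCGC, which are forms of the E2F element, CCAAT, and TTTGAA and TTCGAA, which are forms of the cell cycle homology region. An E2F word was in 8 of the 30 windows (26.7%), against 744 of all 32851 windows (2.26%) and 3.56% of the 15470 windows of genes tested for DIP. CCAAT was in 60.0% of the repair gene windows, against 37.4% of all windows and 37.8% of those of tested genes. The cell cycle homology words were in 3 of the 30 windows (10%), against 19.2% of all windows and 14.8% of those of tested genes. The 5 windows below are shown because they belong to genes that the results turn on, with the matched words in capitals. Clspn and Bard1 were among the largest falls and hold an E2F word, as does Brca2. Brca1 was also among the largest falls and holds only a CCAAT word, and Mus81, which was not called for DIP, holds none of the words.
Clspn, chr4:126556730-126557029, plus strand: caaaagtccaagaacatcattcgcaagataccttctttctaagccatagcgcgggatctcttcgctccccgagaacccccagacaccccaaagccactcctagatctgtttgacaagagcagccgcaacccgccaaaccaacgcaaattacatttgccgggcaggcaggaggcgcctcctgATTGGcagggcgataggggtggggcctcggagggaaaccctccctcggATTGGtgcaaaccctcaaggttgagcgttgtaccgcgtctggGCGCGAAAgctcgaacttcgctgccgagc
Bard1, chr1:71102923-71103222, minus strand: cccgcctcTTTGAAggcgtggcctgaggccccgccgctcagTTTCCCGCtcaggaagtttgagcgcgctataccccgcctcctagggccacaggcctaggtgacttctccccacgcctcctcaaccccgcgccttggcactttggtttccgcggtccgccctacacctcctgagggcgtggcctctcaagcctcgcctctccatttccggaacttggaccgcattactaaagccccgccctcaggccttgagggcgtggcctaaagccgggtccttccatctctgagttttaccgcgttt
Brca2, chr5:150522371-150522670, plus strand: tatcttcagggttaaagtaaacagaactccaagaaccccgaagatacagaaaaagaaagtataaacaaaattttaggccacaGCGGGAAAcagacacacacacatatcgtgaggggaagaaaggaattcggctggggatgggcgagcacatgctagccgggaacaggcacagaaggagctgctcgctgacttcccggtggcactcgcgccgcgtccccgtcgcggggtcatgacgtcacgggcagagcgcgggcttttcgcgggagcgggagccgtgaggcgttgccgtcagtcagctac
Brca1, chr11:101551906-101552205, minus strand: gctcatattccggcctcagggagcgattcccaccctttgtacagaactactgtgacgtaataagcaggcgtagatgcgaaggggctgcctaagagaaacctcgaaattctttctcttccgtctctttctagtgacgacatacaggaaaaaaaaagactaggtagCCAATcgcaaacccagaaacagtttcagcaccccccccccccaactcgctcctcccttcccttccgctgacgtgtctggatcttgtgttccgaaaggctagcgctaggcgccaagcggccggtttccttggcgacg
Mus81, chr19:5488330-5488629, minus strand: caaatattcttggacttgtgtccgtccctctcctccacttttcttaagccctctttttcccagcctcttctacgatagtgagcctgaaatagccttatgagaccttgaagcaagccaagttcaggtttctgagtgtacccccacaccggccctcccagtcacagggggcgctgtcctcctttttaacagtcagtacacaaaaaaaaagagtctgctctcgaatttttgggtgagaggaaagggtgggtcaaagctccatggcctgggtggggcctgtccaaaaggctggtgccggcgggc
The 7 genes with an E2F word were Clspn, Bard1, Topbp1, Chek2, Brca2, Rad51c and Fancg. All 7 were called lower in HC11 DOX + DIP, at a median of -1.85 on the log2 scale, and so were 16 of the 21 genes whose windows hold none, with a median of -1.18. Of all genes tested 21.0% were called lower with DIP. In 4T1 DOX 3 of the 7 were called lower and 2 higher, against 1 lower and 15 higher of the 21, where 35.6% of all genes were called lower and 34.3% higher. These matches describe letters only. The 8 genes without a window in the table, Rad51d, Xrcc2, Rad54b, Fancd2, Rad50, Nbn, Rbbp8 and Exo1, were not searched.

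All 36 genes passed the filter on low counts in both comparisons. In HC11 DOX + DIP 30 were called lower than in HC11 DOX and 0 higher, at an adjusted p under 0.05 by the quasi-likelihood test of edgeR, with Benjamini-Hochberg adjusted values over all 23829 genes tested. Of all genes tested, 21.0% were called lower and 24.5% higher (45.5% in either direction). The median log2 fold change was -1.35 over the repair genes and 0.06 over all genes. In 22 of the 30 the fall was at least 2-fold, which 9.53% of all genes reached. In 8 it was at least 8-fold, for which no share over all genes was taken. The 2 groups of libraries did not overlap for 20 genes, each lower in every HC11 DOX + DIP library, as for 6.66% of all genes. The 6 genes not called were Rad54l, Fance, Nbn, Atm, Atr and Mus81. Fewer cells of a type that transcribes these genes and less RNA per cell cannot be told apart in such bulk libraries.

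In 4T1 DOX 20 of the 36 genes were called higher than in HC11 DOX and 7 lower, against 34.3% higher and 35.6% lower (69.9% in either direction) of the 23875 genes tested. The median log2 fold change was 0.28 over the repair genes and -0.01 over all genes. These differences were small: Chek1 was the 1 gene past 2-fold, which 12.6% of all genes reached upwards and 20.1% downwards. By role, 3 of 5 genes of the BRCA group rose, 3 of 7 of strand invasion rose and 2 fell, and 5 of 8 core complex genes rose and 1 fell. Of the FANCD2-FANCI pair 1 fell and 0 rose. Of the resection genes 4 of 6 rose and 1 fell, of the checkpoint genes 3 of 6 rose and 2 fell, and both nuclease genes rose. Groups did not overlap for 7 genes that were higher in 4T1 DOX and 2 that were lower, against 19.5% and 17.5% of all genes. Both comparisons use the same 10 HC11 DOX libraries, so they are not independent of each other. The HC11 DOX + DIP mean CPM (read counts scaled to library size with TMM factors) was the lowest of the 3 group means for 35 genes, and the 4T1 DOX mean was the lowest for Atm. The 4T1 DOX mean was the highest for 26 genes and the HC11 DOX mean for 10. The plot of log2 CPM by library shows the fall with DIP as a block across nearly all genes, and the plot of log2 fold changes shows its unequal depth.

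**Figure D1:**
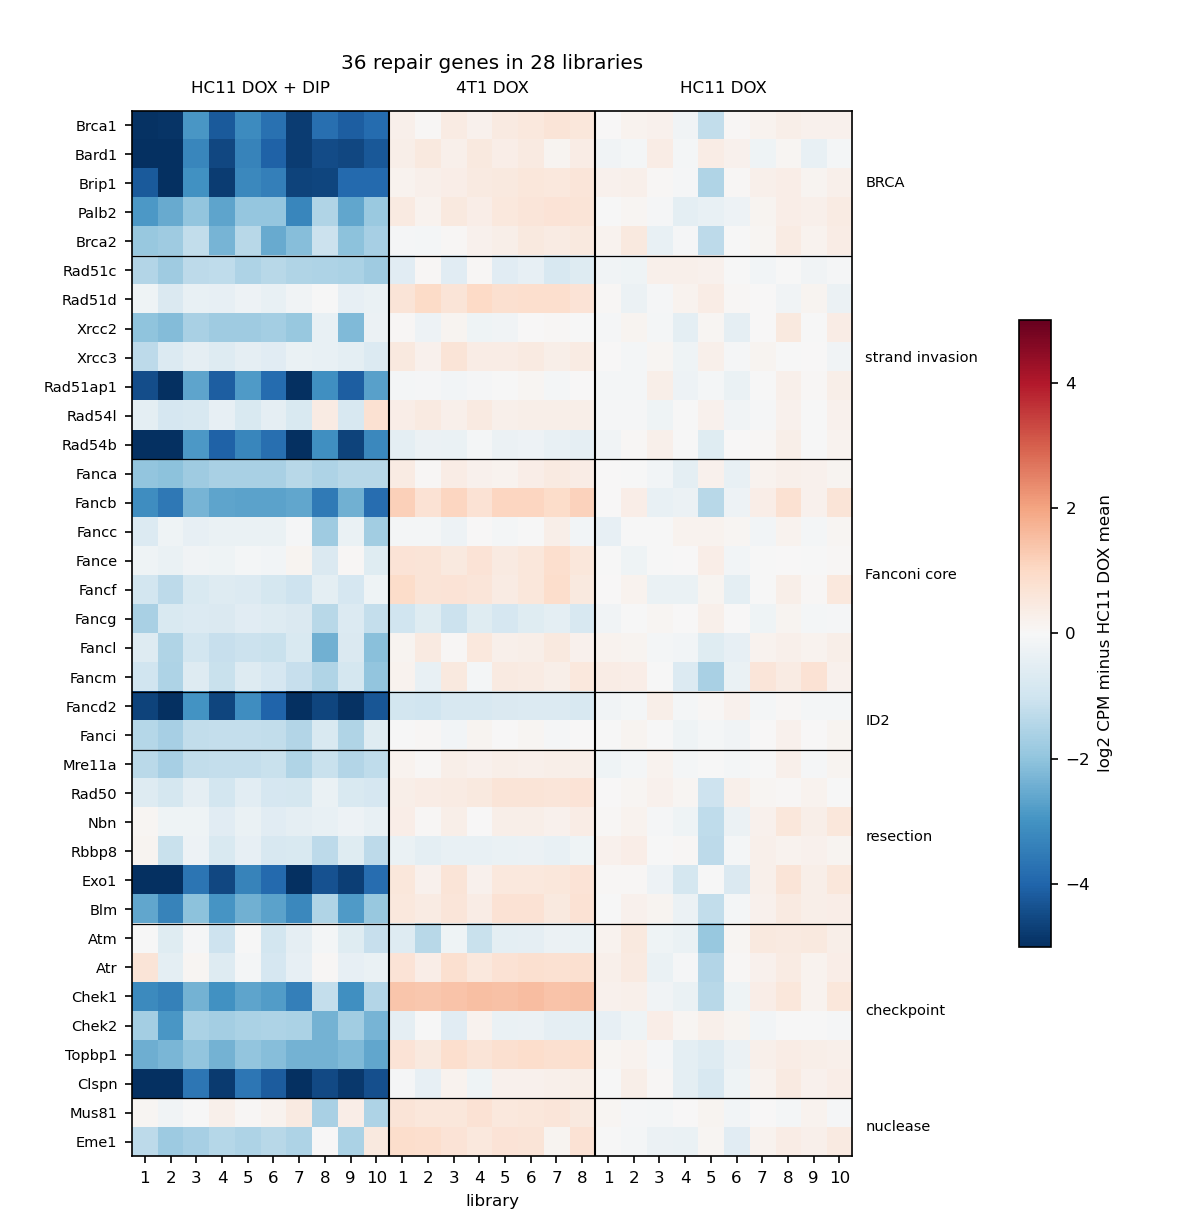
Log2 CPM of the 36 repair genes (down the side, by role) in each of 28 libraries (along the bottom), as the difference from the HC11 DOX mean of that gene. Blue is lower and red is higher, and colours are saturated at 5 log2 units. The 10 HC11 DOX + DIP libraries are blue for most genes, while library 5 of HC11 DOX stands out from its group.

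**Figure D2:**
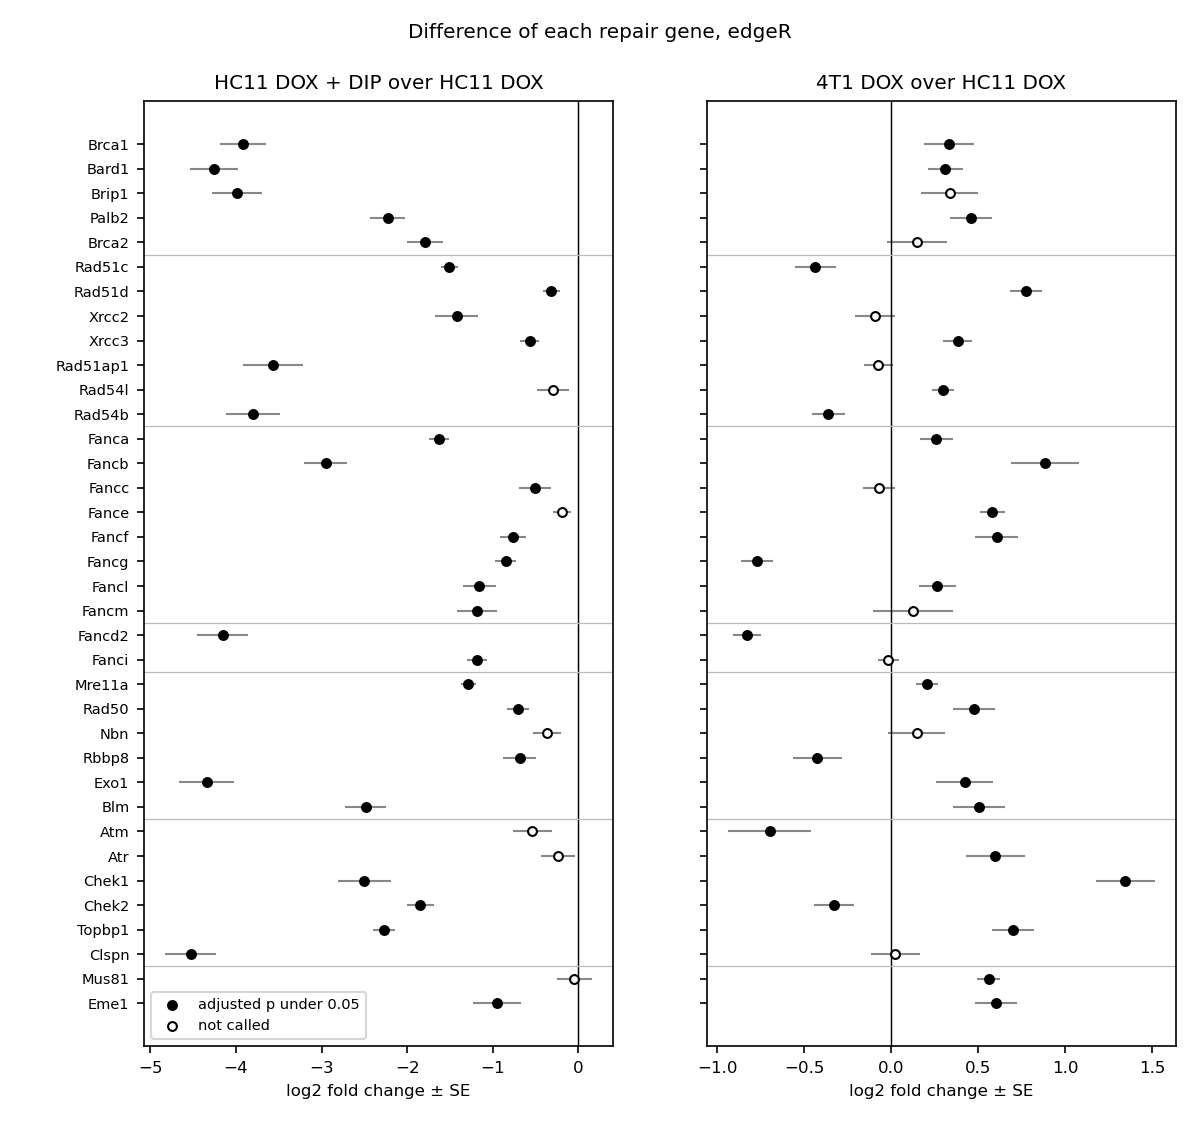
Log2 fold change with its standard error for each of the 36 repair genes, by edgeR, in HC11 DOX + DIP over HC11 DOX (left) and in 4T1 DOX over HC11 DOX (right), on different horizontal scales. Filled points have an adjusted p under 0.05: 30 are lower on the left, and 20 are higher and 7 lower on the right.

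Some libraries stood apart from their group. Libraries 8 and 10 of HC11 DOX + DIP had a median Spearman correlation of 0.9371 and 0.9412 with the other libraries of their group, against 0.9707 to 0.984 for the remaining 8. Library 5 of HC11 DOX had 0.9693, against 0.9759 to 0.9837. In 4T1 DOX, libraries 2 and 4 had 0.9846 and 0.9889, against 0.9901 to 0.9932 in the other 6. Another measure for 4T1 DOX used 286 genes with a mean above 10 CPM in HC11 DOX. Each was under 2% of that mean in its lowest 4T1 DOX library, so they were picked on the same 4T1 DOX values. Over these genes, libraries 2 and 1 held a median of 4.76% and 3.22% of the HC11 DOX level, against 0.589% to 1.48% in the others. Values without DIP libraries 8 and 10, HC11 DOX library 5, or 4T1 DOX libraries 1 and 2 are given where they change a result. Libraries 2 and 4 of 4T1 DOX were not left out as a pair. Epithelial marker genes (Krt5, Krt14, Krt8, Krt18, Epcam and Cdh1) were present in all groups, with summed levels of 429 to 2202 CPM in HC11 DOX + DIP, 2132 to 3045 CPM in 4T1 DOX and 3383 to 8009 CPM in HC11 DOX, none of the 6 at 0. Of these, 3 were called lower and 1 higher with DIP, and 3 lower and 2 higher in 4T1 DOX. The sums hide opposite differences: Krt18 averaged 927 CPM in 4T1 DOX and 15.8 CPM in HC11 DOX, and Krt5 31.1 CPM in 4T1 DOX and 3054 CPM in HC11 DOX. The 6 fibroblast markers summed to 20.6 to 268 CPM in HC11 DOX + DIP, 9.49 to 15.8 CPM in 4T1 DOX and 38.1 to 98.8 CPM in HC11 DOX; 3 of the 6 were called higher and 0 lower with DIP, and 5 lower and 0 higher in 4T1 DOX. Dcn averaged 56.2 CPM in HC11 DOX + DIP, 0.29 CPM in 4T1 DOX and 5.56 CPM in HC11 DOX, and Lum at most 1.95 CPM in any group. Immune markers summed to at most 12.4 CPM in any library, with Adgre1 and Cd3e at 0 counts in all 4T1 DOX libraries, and endothelial markers to at most 5.23 CPM. The part of these marker differences in the results was not tested.

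The 5 genes of the BRCA group all fell in HC11 DOX + DIP, with log2 fold changes of -4.26 to -1.79. BRCA1 and BARD1 form a ubiquitin ligase that promotes resection. Brca1 ran from 1.12 CPM through a median of 2.15 to 4.54 CPM in HC11 DOX + DIP, from 36.1 through 46.0 to 53.5 CPM in 4T1 DOX and from 14.8 through 38.7 to 42.5 CPM in HC11 DOX. Every HC11 DOX + DIP library was below every other library, and the lowest HC11 DOX value was that of library 5. The log2 fold change was -3.92 ± 0.27 (SE; edgeR adjusted p = 1.29e-10). In 4T1 DOX it was 0.33 ± 0.14 (edgeR adjusted p = 0.0447), a call that ended on leaving out any of 9 libraries in turn (HC11 DOX 1, 4, 6 and 7, and 4T1 DOX 3, 5, 6, 7 and 8), with adjusted p up to 0.136, and when all 3 groups were fitted together (0.199). Without HC11 DOX library 5 the log2 fold change was 0.21.

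Bard1 ran from 0.475 through 1.2 to 2.88 CPM in HC11 DOX + DIP, from 30.2 through 35.1 to 38.6 CPM in 4T1 DOX and from 20.9 through 25.7 to 35.6 CPM in HC11 DOX. The DIP libraries were again apart from all others, while the 4T1 DOX and HC11 DOX libraries overlapped. Its log2 fold change was -4.26 ± 0.28 with DIP (edgeR adjusted p = 6.57e-11) and 0.31 ± 0.10 in 4T1 DOX (edgeR adjusted p = 0.00942; 0.222 in a fit of all 3 groups). Brip1, the helicase that binds the BRCT repeats of BRCA1, averaged 1.17 ± 0.58 CPM in HC11 DOX + DIP (SD, n = 10), 24 ± 2.61 CPM in 4T1 DOX (n = 8) and 18.8 ± 4.72 CPM in HC11 DOX (n = 10). It fell by 3.99 on the log2 scale with DIP (edgeR adjusted p = 3.38e-10), without overlap, and was not called in 4T1 DOX (0.34 ± 0.16, edgeR adjusted p = 0.0715). Without HC11 DOX library 5, at 6.2 CPM the lowest of its group, the log2 fold change in 4T1 DOX was smaller, at 0.20, and was called (edgeR adjusted p = 0.0232).

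PALB2 bridges BRCA1 and BRCA2, and BRCA2 acts at the resected end. Palb2 ran from 0.712 through 1.49 to 2.43 CPM in HC11 DOX + DIP, from 7.95 through 9.89 to 11.2 CPM in 4T1 DOX and from 4.94 through 7.16 to 9.21 CPM in HC11 DOX. Brca2 ran from 4.03 through 6.38 to 10.9 CPM in HC11 DOX + DIP, from 21.4 through 27.3 to 32.0 CPM in 4T1 DOX and from 9.17 through 25.3 to 32.3 CPM in HC11 DOX. The DIP libraries lay below all HC11 DOX libraries for Palb2, and below all but library 5 for Brca2. Palb2 fell by 2.23 and Brca2 by 1.79 on the log2 scale with DIP (edgeR adjusted p = 1.13e-08 and 5.61e-07). In 4T1 DOX Palb2 was called higher (log2 fold change 0.46 ± 0.12, edgeR adjusted p = 0.00187), and Brca2 was not called (0.15 ± 0.17).

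**Figure D3:**
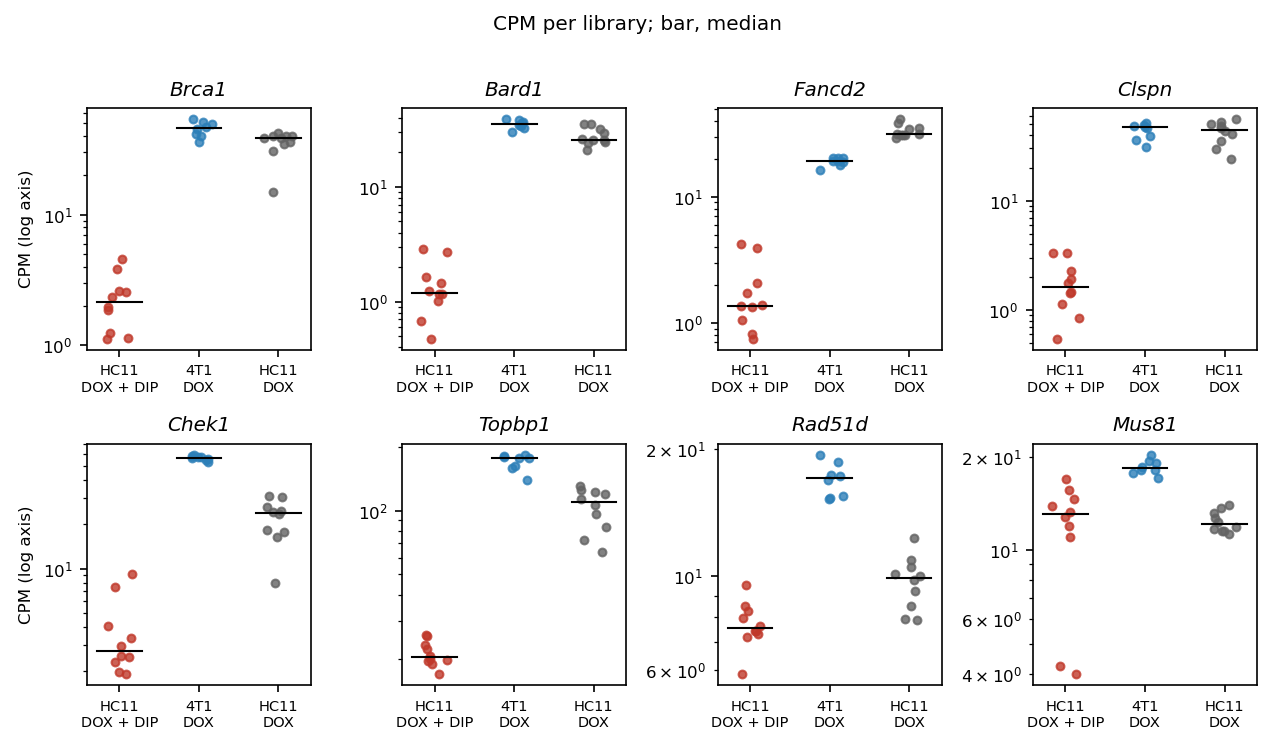
CPM on a log axis in each library for 8 repair genes, with HC11 DOX + DIP at the left, 4T1 DOX in the middle and HC11 DOX at the right; each point is a library and each bar a group median. For Clspn the 10 HC11 DOX + DIP libraries sit between 0.548 and 3.35 CPM, below all others. For Mus81 libraries 8 and 10 lie at 3.99 and 4.23 CPM and the other 8 between 11 and 16.9 CPM.

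Among the 7 genes of strand invasion, 6 fell with DIP, and the falls were of very unequal size. RAD51AP1 and RAD54B are accessory factors of strand invasion. Rad51ap1 averaged 1.82 ± 1.17 CPM in HC11 DOX + DIP (SD, n = 10), 21.0 ± 1.1 CPM in 4T1 DOX (n = 8) and 21.8 ± 3.26 CPM in HC11 DOX (n = 10). Rad54b averaged 1.86 ± 1.09 CPM in HC11 DOX + DIP (SD, n = 10), 20.7 ± 1.88 CPM in 4T1 DOX (n = 8) and 26.2 ± 4.25 CPM in HC11 DOX (n = 10). Both fell without overlap with DIP, by 3.56 and 3.80 on the log2 scale (edgeR adjusted p = 3.72e-08 and 2.59e-09). In 4T1 DOX Rad51ap1 was not called (-0.07 ± 0.08), and Rad54b was called lower (-0.36 ± 0.09, edgeR adjusted p = 0.0021; 0.234 in a fit of all 3 groups). Fsbp lies on the same strand as Rad54b and shares 35.8% of its exon bases. It fell by 3.45 on the log2 scale with DIP (edgeR adjusted p = 1.48e-08), so the counts of this pair are uncertain.

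RAD51C, RAD51D, XRCC2 and XRCC3 form complexes that assist strand invasion. Rad51c ran from 4.92 through 5.89 to 6.97 CPM in HC11 DOX + DIP, from 9.79 through 11.6 to 17.8 CPM in 4T1 DOX and from 14.8 through 16.5 to 20.5 CPM in HC11 DOX. The DIP libraries were below all HC11 DOX libraries. In 4T1 DOX only libraries 2 and 4, at 17.8 and 17.4 CPM, reached the HC11 DOX range, and the rest ran from 9.79 to 12.6 CPM. The log2 fold change was -1.51 ± 0.10 with DIP (edgeR adjusted p = 4.59e-11) and -0.44 ± 0.12 in 4T1 DOX (edgeR adjusted p = 0.00293). Xrcc3 ran from 4.61 through 7.84 to 9.08 CPM in HC11 DOX + DIP, from 13.0 through 14.9 to 17.6 CPM in 4T1 DOX and from 9.78 through 11.3 to 13.3 CPM in HC11 DOX. Its 10 DIP values lay below all HC11 DOX values, and the 4T1 DOX values overlapped the upper end of HC11 DOX. Xrcc3 fell by 0.57 on the log2 scale with DIP (edgeR adjusted p = 0.000226) and was called higher in 4T1 DOX by 0.38 (edgeR adjusted p = 0.000376).

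Rad51d ran from 5.87 through 7.53 to 9.52 CPM in HC11 DOX + DIP, from 15.2 through 17.1 to 19.4 CPM in 4T1 DOX and from 7.89 through 9.93 to 12.3 CPM in HC11 DOX. All 4T1 DOX libraries were above all HC11 DOX libraries, while the DIP libraries overlapped them. The log2 fold change was -0.32 ± 0.10 with DIP (edgeR adjusted p = 0.0162) and 0.78 ± 0.09 in 4T1 DOX (edgeR adjusted p = 3.38e-07). Xrcc2 fell by 1.42 on the log2 scale with DIP (edgeR adjusted p = 7.82e-05), with 10.9 and 11.6 CPM in libraries 8 and 10 and 3.07 to 4.58 CPM in the other 8, and it was not called in 4T1 DOX. Rad54l, a translocase that acts during strand invasion, had 65.2 and 83.2 CPM in DIP libraries 8 and 10 and 27.7 to 37.0 CPM in the other 8, against 43.1 to 57.8 CPM in HC11 DOX. It was not called with DIP (-0.30 ± 0.19, edgeR adjusted p = 0.2), and was called lower without those 2 libraries (-0.66, edgeR adjusted p = 1.73e-06) and without library 10 alone (edgeR adjusted p = 0.00874). Exons of Lrrc41 on the other strand cover 15.4% of Rad54l exon bases, and Lrrc41 stood at 140 and 156 CPM in the same 2 libraries and at 55.0 to 71.6 CPM in the other 8. The part of Lrrc41 reads in the Rad54l counts was not tested. In 4T1 DOX Rad54l was called higher without overlap (0.30 ± 0.06, edgeR adjusted p = 0.000334; 0.127 in a fit of all 3 groups).

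In the Fanconi core complex 7 of 8 genes fell with DIP, by 0.51 to 2.95 on the log2 scale. FANCL is the ubiquitin ligase subunit and works with FANCB, FANCM anchors the complex to DNA, and FANCA, FANCC, FANCE, FANCF and FANCG are its scaffold. Fancb fell furthest with DIP and rose most in 4T1 DOX within the complex. It ran from 0.612 through 1.38 to 1.75 CPM in HC11 DOX + DIP, from 14.5 through 18.7 to 20 CPM in 4T1 DOX and from 3.36 through 9.68 to 15.1 CPM in HC11 DOX. The DIP libraries were below all others, and 4T1 DOX overlapped only the top of HC11 DOX. The log2 fold change was -2.95 ± 0.25 with DIP (edgeR adjusted p = 4.33e-09) and 0.89 ± 0.19 in 4T1 DOX (edgeR adjusted p = 0.000434).

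Fancg moved down in both. It ran from 4.85 through 9.06 to 10.3 CPM in HC11 DOX + DIP, from 7.14 through 9.25 to 10.8 CPM in 4T1 DOX and from 13.1 through 15.1 to 18.3 CPM in HC11 DOX. Neither group reached the lowest HC11 DOX library. Its log2 fold change was -0.85 ± 0.13 with DIP (edgeR adjusted p = 1.26e-05) and -0.77 ± 0.09 in 4T1 DOX (edgeR adjusted p = 3.81e-07). Fancf ran from 1.96 through 2.81 to 4.22 CPM in HC11 DOX + DIP, from 6.59 through 7.64 to 9.23 CPM in 4T1 DOX and from 3.55 through 4.98 to 7.1 CPM in HC11 DOX. Its groups overlapped, and DIP libraries 10 and 8 were its highest at 4.22 and 3.51 CPM. Fancf fell by 0.76 on the log2 scale with DIP (edgeR adjusted p = 0.000227) and was called higher by 0.61 in 4T1 DOX (edgeR adjusted p = 0.000203). Gas2, which shares 15.0% of the Fancf exon bases on the other strand, differed in the same directions (-1.02 with DIP and 0.71 in 4T1 DOX).

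The remaining core genes changed less evenly. Fanca averaged 18.1 ± 2.79 CPM in HC11 DOX + DIP, 68.9 ± 6.16 CPM in 4T1 DOX and 56.8 ± 9.75 CPM in HC11 DOX (SD, n = 10, 8 and 10). It fell by 1.63 on the log2 scale with DIP without overlap (edgeR adjusted p = 2.64e-10), while Zfp276, on the other strand over 10.5% of its exon bases, was called higher. Fancl fell by 1.16 and Fancm by 1.19 with DIP (edgeR adjusted p = 3.85e-05 and 0.000273), the first without overlap. Vrk2, on the other strand over 13.7% of the Fancl exon bases, differed in the same directions as Fancl (-1.21 with DIP and 0.41 in 4T1 DOX). The part of Vrk2 reads in the Fancl counts was not tested. Fancc fell by 0.51 (edgeR adjusted p = 0.0288), or by 0.32 without libraries 8 and 10, with 2.89 and 2.94 CPM in libraries 8 and 10 and 6.04 to 9.55 CPM in the other 8. Fance was not called with DIP (-0.20 ± 0.11, edgeR adjusted p = 0.135). In 4T1 DOX Fance was called higher without overlap (0.58 ± 0.07, edgeR adjusted p = 6.05e-07), Fanca and Fancl were called higher by 0.26 and 0.27, and Fancc and Fancm were not called. The Fanca call in 4T1 DOX ended without 4T1 DOX library 3, 7 or 8 (adjusted p up to 0.0629). That of Fancl ended on leaving out any of 9 libraries in turn (HC11 DOX 3, 4, 5 and 6, and 4T1 DOX 2, 3, 4, 7 and 8), with adjusted p up to 0.122, and without both 4T1 DOX 1 and 2 (0.0584).

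FANCD2 and FANCI are the clamp that the core complex ubiquitinates, and their genes changed very unequally. Fancd2 ran from 0.746 through 1.37 to 4.18 CPM in HC11 DOX + DIP, from 16.4 through 19.2 to 20.4 CPM in 4T1 DOX and from 29.4 through 31.4 to 41.0 CPM in HC11 DOX. Fanci ran from 8.3 through 11.1 to 17.0 CPM in HC11 DOX + DIP, from 23.7 through 26.5 to 28.4 CPM in 4T1 DOX and from 22.8 through 26.0 to 30.4 CPM in HC11 DOX. The 3 groups were fully separate for Fancd2, and for Fanci only the DIP group was. Fancd2 fell by 4.15 ± 0.30 with DIP (edgeR adjusted p = 2.42e-10) and by 0.83 ± 0.08 in 4T1 DOX (edgeR adjusted p = 1.44e-08) on the log2 scale. Fanci fell by 1.18 ± 0.12 with DIP (edgeR adjusted p = 6.05e-08) and was not called in 4T1 DOX (-0.02 ± 0.06). Polg, on the other strand over 16% of the Fanci exon bases, was not called in either comparison (0.16 with DIP and 0.14 in 4T1 DOX) and held 111 and 103 CPM in DIP libraries 8 and 10, against 57.5 to 73.4 CPM in the other 8.

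Of the 6 genes of end recognition and resection, 5 fell with DIP. EXO1 is the long-range resection nuclease and BLM the helicase that unwinds ends and dissolves joint molecules. Exo1 ran from 0.48 through 1.54 to 3.31 CPM in HC11 DOX + DIP, from 38.7 through 49.6 to 53.3 CPM in 4T1 DOX and from 18.4 through 34.8 to 52.3 CPM in HC11 DOX. Only the DIP libraries were separate from the rest. The log2 fold change was -4.34 ± 0.32 with DIP (edgeR adjusted p = 4.13e-10). In 4T1 DOX it was 0.42 ± 0.16 (edgeR adjusted p = 0.0253), a call lost without HC11 DOX library 5 or 4T1 DOX library 3, 7 or 8 (adjusted p 0.0575 to 0.0652). Blm averaged 4.74 ± 2.07 CPM in HC11 DOX + DIP, 38.6 ± 3.96 CPM in 4T1 DOX and 26.9 ± 7.04 CPM in HC11 DOX (SD, n = 10, 8 and 10), and was called in both comparisons (-2.49 with DIP and 0.51 in 4T1 DOX).

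MRE11, RAD50 and NBN form the complex that first binds a broken end, and RBBP8, also called CtIP, starts its nuclease. Mre11a ran from 24.6 through 31.9 to 36 CPM in HC11 DOX + DIP, from 80.3 through 92.7 to 94.1 CPM in 4T1 DOX and from 67.1 through 75.2 to 91.3 CPM in HC11 DOX. Rad50 ran from 21.4 through 23.3 to 31.7 CPM in HC11 DOX + DIP, from 49.5 through 59.8 to 65.0 CPM in 4T1 DOX and from 19.9 through 42.8 to 48.8 CPM in HC11 DOX. DIP libraries lay below all HC11 DOX libraries for Mre11a, and below all but library 5 for Rad50. Mre11a fell by 1.29 and Rad50 by 0.71 on the log2 scale with DIP (edgeR adjusted p = 7.71e-11 and 0.000113). In 4T1 DOX Mre11a was called higher by 0.21 and Rad50 by 0.47 (edgeR adjusted p = 0.00768 and 0.00181). Nbn, the third subunit, was not called with DIP (-0.37 ± 0.16, edgeR adjusted p = 0.0733) or in 4T1 DOX (0.15 ± 0.16). Without HC11 DOX library 5, at 9.17 CPM beside 18.3 to 32.8 CPM in the other 9, it was called lower with DIP (-0.47, edgeR adjusted p = 0.00327). It was also called lower without DIP library 1 (edgeR adjusted p = 0.0477), and when all 3 groups were fitted together (-0.39, edgeR adjusted p = 0.0263).

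Rbbp8 ran from 16 through 23.6 to 43.9 CPM in HC11 DOX + DIP, from 28.6 through 31.1 to 34.3 CPM in 4T1 DOX and from 16.2 through 44.9 to 50.6 CPM in HC11 DOX. Both groups overlapped HC11 DOX, and without library 5 of HC11 DOX, which held 16.2 CPM, the other 9 ran from 37.7 to 50.6 CPM. It fell by 0.69 on the log2 scale with DIP (edgeR adjusted p = 0.00537) and by 0.42 in 4T1 DOX (edgeR adjusted p = 0.0117). The 4T1 DOX call was lost without 4T1 DOX libraries 1 and 2 (-0.39, edgeR adjusted p = 0.0502).

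The kinases at the head of the checkpoint, Atm and Atr, were not called with DIP, whereas the 4 other checkpoint genes fell. Atm ran from 10.7 through 16.3 to 23.0 CPM in HC11 DOX + DIP, from 8.96 through 17.0 to 20.1 CPM in 4T1 DOX and from 6.32 through 27.4 to 33.1 CPM in HC11 DOX. Atr ran from 14 through 19.2 to 39.2 CPM in HC11 DOX + DIP, from 31.7 through 42.0 to 43.8 CPM in 4T1 DOX and from 9.15 through 28.4 to 33.8 CPM in HC11 DOX. For both genes the lowest of all 28 libraries was HC11 DOX library 5, and both other groups overlapped the HC11 DOX range. With DIP the log2 fold change was -0.54 ± 0.23 for Atm (edgeR adjusted p = 0.0561) and -0.24 ± 0.20 for Atr (edgeR adjusted p = 0.358). Without HC11 DOX library 5 Atm was called lower (-0.67, edgeR adjusted p = 0.00264), and likewise without HC11 DOX library 4 or HC11 DOX + DIP library 1, 3, 5 or 8 (edgeR adjusted p = 0.0463 to 0.0478) and when all 3 groups were fitted together (-0.56, edgeR adjusted p = 0.0328). In 4T1 DOX Atm was called lower (-0.70 ± 0.24, edgeR adjusted p = 0.0132) and Atr higher (0.60 ± 0.17, edgeR adjusted p = 0.00363), the Atm call being lost without 4T1 DOX libraries 1 and 2 (-0.58, edgeR adjusted p = 0.0575).

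CHEK1 is the kinase that ATR activates at stalled forks. Chek1 ran from 1.91 through 2.75 to 9.2 CPM in HC11 DOX + DIP, from 53.5 through 56.7 to 59.6 CPM in 4T1 DOX and from 7.91 through 23.8 to 31.1 CPM in HC11 DOX. Every 4T1 DOX library was above every other library, and DIP overlapped HC11 DOX only where DIP library 8, the highest of its group, passed HC11 DOX library 5. The log2 fold change was -2.50 ± 0.31 with DIP (edgeR adjusted p = 1.07e-06) and 1.34 ± 0.17 in 4T1 DOX (edgeR adjusted p = 6.92e-07), which was 2.54-fold. Chek2, the kinase that ATM activates, ran from 1.96 through 4.49 to 5.0 CPM in HC11 DOX + DIP, from 9.9 through 11.2 to 16.8 CPM in 4T1 DOX and from 11.1 through 14.5 to 18.7 CPM in HC11 DOX. Only the DIP libraries were apart. Chek2 fell by 1.85 on the log2 scale with DIP (edgeR adjusted p = 4.47e-09) and by 0.33 in 4T1 DOX (edgeR adjusted p = 0.015; 0.0733 in a fit of all 3 groups).

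TOPBP1 activates ATR, and CLSPN carries CHEK1 to it. Topbp1 ran from 16.9 through 20.2 to 25.8 CPM in HC11 DOX + DIP, from 139.8 through 178 to 184 CPM in 4T1 DOX and from 63.9 through 111 to 131 CPM in HC11 DOX. Clspn ran from 0.548 through 1.63 to 3.35 CPM in HC11 DOX + DIP, from 31.1 through 47.1 to 50.9 CPM in 4T1 DOX and from 23.8 through 44.5 to 55.2 CPM in HC11 DOX. The 3 groups were separate for Topbp1, with 4T1 DOX at the top and DIP at the bottom, and for Clspn only DIP was apart. Topbp1 fell by 2.27 ± 0.13 with DIP (edgeR adjusted p = 1.22e-11) and was called higher by 0.70 ± 0.12 in 4T1 DOX (edgeR adjusted p = 2.94e-05). Clspn had the deepest fall of the 36 genes with DIP, 4.53 ± 0.30 on the log2 scale or 23.1-fold (edgeR adjusted p = 6.03e-11), and was not called in 4T1 DOX (0.03 ± 0.14).

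MUS81 and EME1 are the partners of a nuclease that cleaves joint molecules. Mus81 ran from 3.99 through 13.0 to 16.9 CPM in HC11 DOX + DIP, from 17.1 through 18.3 to 20.3 CPM in 4T1 DOX and from 11.3 through 12.1 to 14 CPM in HC11 DOX. Eme1 ran from 9.56 through 12.1 to 47.8 CPM in HC11 DOX + DIP, from 37.5 through 54.4 to 61.6 CPM in 4T1 DOX and from 23.2 through 35.0 to 45.8 CPM in HC11 DOX. DIP libraries 8 and 10 were the lowest of their group for Mus81 and, at 34.3 and 47.8 CPM, the highest for Eme1, whose other 8 libraries ran from 9.56 to 13.8 CPM. Lrrc59, on the other strand over 8.0% of the Eme1 exon bases, held 516 and 552 CPM in those 2 libraries and 121 to 182 CPM in the other 8, and its part in the Eme1 counts was not tested. With DIP Mus81 was not called (-0.05 ± 0.21, edgeR adjusted p = 0.867), and Eme1 was called lower by 0.95 ± 0.28 (edgeR adjusted p = 0.00764), or by 1.55 without libraries 8 and 10. In 4T1 DOX both were called higher, Mus81 without overlap (0.56 ± 0.07, edgeR adjusted p = 2.1e-07) and Eme1 with overlap (0.60 ± 0.12, edgeR adjusted p = 0.000177). Efemp2, on the other strand over 4.9% of the Mus81 exon bases, averaged 86.3 CPM in 4T1 DOX and 2.78 CPM in HC11 DOX, and its part in the Mus81 rise was not tested.

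Levels were also divided by exon length in kilobases, with all annotated exons of a gene merged (GENCODE vM21). The counts were made on another build, and merged lengths differ widely, such as 23629 bases for Atr and 2533 for Nbn. The order of genes below therefore depends in part on annotated length. The highest group means in HC11 DOX + DIP were 7.11 CPM per kb for Nbn, 6.37 for Eme1 and 6.23 for Fance; without libraries 8 and 10 Eme1 was at 4.24 CPM per kb, below Nbn (7.19), Fance (6.66), Mre11a (5.2), Fancl (4.92) and Rad50 (4.55). In all 10 libraries the lowest were 0.157 CPM per kb for Brip1, 0.202 for Palb2 and 0.204 for Exo1. In 4T1 DOX Eme1 (19.3 CPM per kb), Mre11a (15.3) and Topbp1 (15.2) were highest and Fancm lowest (0.895). The highest in HC11 DOX were Mre11a (13.1 CPM per kb), Eme1 (12.5) and Fancl (9.8), and the lowest Fancm (0.815).

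A set of 8 pairs of partner genes were compared within each library, as the log2 ratio of their counts, which does not depend on how libraries are scaled. A difference between groups in such a ratio shows unequal change and not which partner changed. Differences were tested by two-sided permutation of libraries, with 100000 resamples for DIP and exactly for 4T1 DOX, and adjusted by Benjamini-Hochberg over the 16 tests. The Fancd2 to Fanci ratio averaged -2.82 ± 0.78 in HC11 DOX + DIP, -0.47 ± 0.14 in 4T1 DOX and 0.34 ± 0.22 in HC11 DOX (log2, SD). It was lower in all 10 DIP libraries and in all 8 4T1 DOX libraries than in any HC11 DOX library, with differences of -3.16 (permutation test, adjusted p = 0.000107) and -0.81 (exact permutation test, adjusted p = 0.000146). The raw p-values behind these, 2e-05 and 4.57e-05, are the smallest such tests can give here.

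The Chek1 to Atr ratio averaged -2.68 ± 0.81 in HC11 DOX + DIP, 0.50 ± 0.15 in 4T1 DOX and -0.26 ± 0.19 in HC11 DOX (log2, SD). No library of the 3 groups overlapped: the ratio was lower with DIP (difference -2.41, permutation test, adjusted p = 0.000107) and higher in 4T1 DOX (difference 0.77, exact permutation test, adjusted p = 0.000146). The Xrcc3 to Rad51c ratio was higher in both, by 0.92 with DIP (permutation test, adjusted p = 0.000107) and by 0.83 in 4T1 DOX (exact permutation test, adjusted p = 0.000548). Mre11a to Rad50 was lower in both, with differences of -0.60 with DIP and -0.29 in 4T1 DOX (permutation tests, adjusted p = 0.00016 and 0.0233). Without HC11 DOX library 5, which had the highest ratio, the differences were -0.49 and -0.18 (exact permutation tests, adjusted p = 0.000346 and 0.0378). With DIP the Chek2 to Atm ratio was lower (difference -1.41, permutation test, adjusted p = 0.000183). Palb2 to Brca2 was lower too (difference -0.50, permutation test, adjusted p = 0.0301), a call lost without HC11 DOX library 5 (-0.40, permutation test, adjusted p = 0.0536). In 4T1 DOX Chek2 to Atm and Palb2 to Brca2 were not called. Palb2 to Brca2 was called higher without HC11 DOX library 5 (0.38, exact permutation test, adjusted p = 0.00234). For Chek2 to Atm the 4T1 DOX libraries ran from -1.02 to 0.68 (log2). Libraries 2 and 4 of 4T1 DOX held Chek2 at 14.4 and 16.8 CPM, above Atm at 8.96 and 10.8 CPM. In every other 4T1 DOX library Chek2 was below Atm. These libraries were not left out as a pair, so their part in the missing call was not tested.

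The Brca1 to Bard1 ratio was not called to differ, and averaged 0.73 ± 0.26 in HC11 DOX + DIP, 0.36 ± 0.28 in 4T1 DOX and 0.33 ± 0.60 in HC11 DOX (log2, SD), with differences of 0.41 (permutation test, adjusted p = 0.0513) and 0.04 (exact permutation test, adjusted p = 0.955). Eme1 to Mus81 averaged 0.48 ± 1.5 in HC11 DOX + DIP, 1.51 ± 0.26 in 4T1 DOX and 1.46 ± 0.30 in HC11 DOX. It was not called with DIP (difference -0.98, permutation test, adjusted p = 0.0835), and without DIP libraries 8 and 10 it was called lower (-1.68, permutation test, adjusted p = 0.000146). The plot of ratios shows these 2 libraries apart from the other 8, which ran from -0.56 to 0.06.

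**Figure D4:**
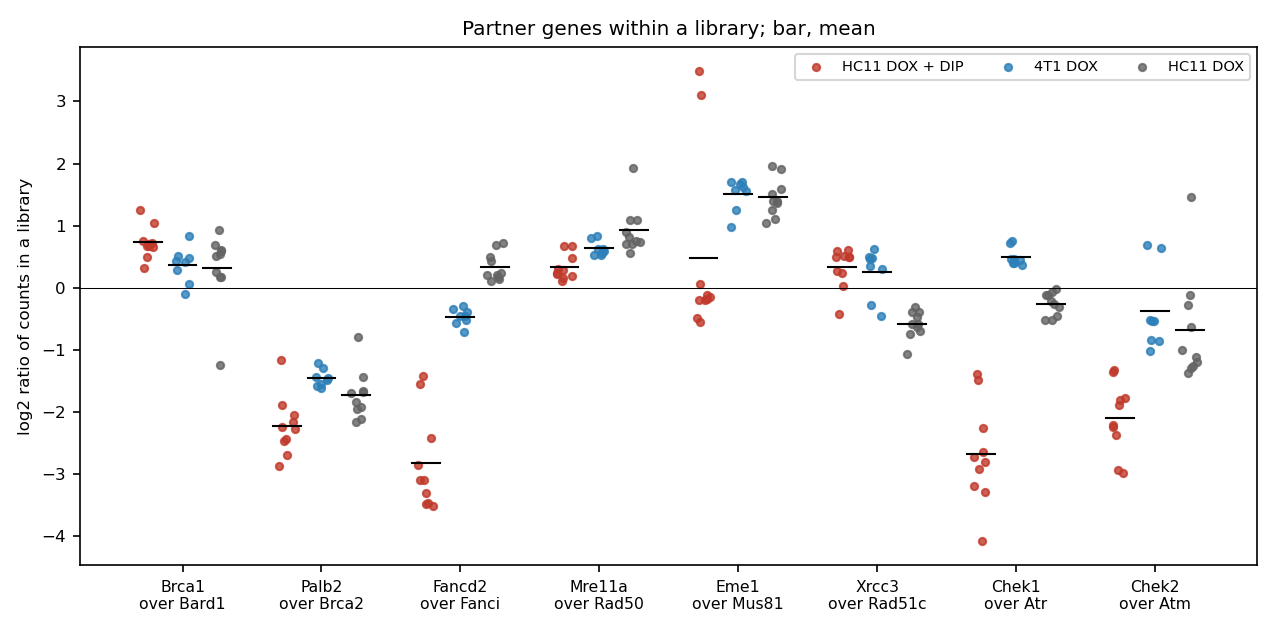
Log2 ratio of the counts of 2 partner genes within each library, for 8 pairs, with HC11 DOX + DIP in red, 4T1 DOX in blue and HC11 DOX in grey; each point is a library and each bar a group mean. Fancd2 over Fanci falls to between -3.52 and -1.42 in HC11 DOX + DIP, against 0.12 to 0.72 in HC11 DOX.

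The repair genes were set against 24 DNA replication genes, since both groups are transcribed in dividing cells. All 24 replication genes were called lower with DIP (median log2 fold change -2.60), and all 15 mitosis genes, with a median of -4.67. In each library the mean log2 CPM of the replication genes was subtracted from that of each repair gene. With DIP 26 repair genes stood higher relative to this mean than in HC11 DOX and 10 lower, with a median difference of 1.20. This split turned with the genes used: against the mean of the 15 mitosis genes all 36 stood higher with DIP, by 0.14 to 4.63 (median 3.42). Against the replication mean the differences ran from -2.07 for Clspn to 2.41 for Mus81, as the plot against the replication mean shows. Clspn, Exo1, Bard1, Fancd2, Brip1, Rad54b, Brca1 and Rad51ap1 had the lowest differences from the replication mean, -2.07 to -1.29, and all 8 were above 0 against the mitosis mean (0.14 for Clspn to 0.92 for Rad51ap1). Chek1 and Blm had -0.04 and 0.06 against the replication mean. In 4T1 DOX 13 of the 24 replication genes were called higher and 1 lower, with a median of 0.38, and 9 of the 15 mitosis genes higher and 1 lower. There 13 repair genes stood higher relative to the replication mean and 23 lower, with a median difference of -0.12, from -1.24 for Fancd2 to 1.01 for Chek1. These are descriptions with no test.

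**Figure D5:**
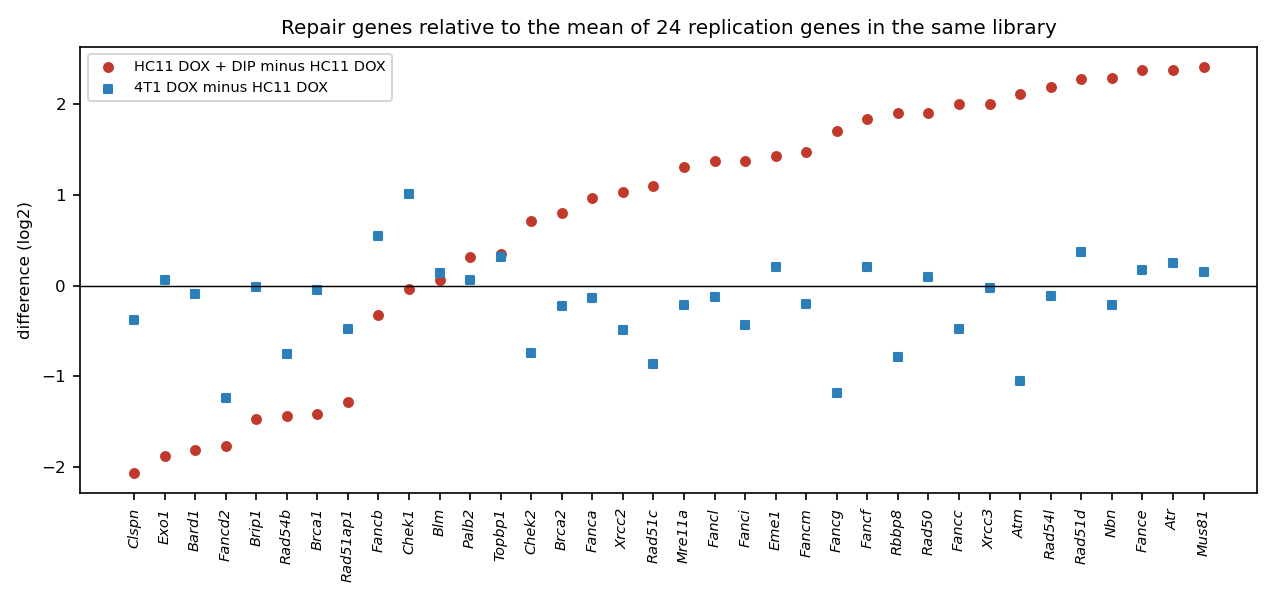
Log2 CPM of each of the 36 repair genes minus the mean log2 CPM of 24 replication genes in the same library, as the difference of group means for HC11 DOX + DIP minus HC11 DOX (red circles) and 4T1 DOX minus HC11 DOX (blue squares). Genes are ordered by the red values, which run from -2.07 for Clspn to 2.41 for Mus81.

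Within HC11 DOX + DIP the repair genes varied from library to library. The lowest value came from library 2 for 17 of the 36 genes, and the highest from library 3 for 8. The mean log2 CPM of the mitosis genes was lowest in library 2, at 0.50, and highest in library 3, at 3.25, and its part in the spread was not tested. The coefficient of variation in HC11 DOX + DIP was 11.4% for Rad51c, 12.3% for Mre11a and 13.9% for Topbp1, against 65.6% for Fancd2, 65.5% for Chek1 and 73.0% for Eme1. Those of Eme1 and Chek1 rested largely on libraries 8 and 10. Eme1 averaged 17.6 ± 12.8 CPM in all 10 libraries and 11.7 ± 1.36 CPM without those 2 (SD). For Chek1 these were 3.83 ± 2.51 and 2.69 ± 0.73 CPM, and for Fancd2 1.85 ± 1.22 and 1.93 ± 1.36 CPM. DIP libraries 8 and 10 were both above the other 8 for 8 genes (Palb2, Xrcc2, Rad54l, Fancf, Fanci, Blm, Chek1 and Eme1) and both below for 5 (Fancc, Fance, Fancl, Rbbp8 and Mus81). Without them 31 of the 36 genes were called lower with DIP and 0 higher, where 6204 of all 24427 genes tested were called lower and 6599 higher. The median log2 fold change of the 36 genes was -1.52 in that fit. Library 5 of HC11 DOX held the lowest value of that group for 16 genes and the highest for 5. No share over all genes was taken for these counts by library, so they are no result about the repair genes. Without library 5 of HC11 DOX, 32 of the 36 genes were called lower with DIP, where 5085 of all 24062 genes tested were called lower and 5810 higher. In 4T1 DOX 19 of the 36 genes were called higher and 5 lower without libraries 1 and 2. Of all 24519 genes tested in that fit, 7937 were called higher and 8343 lower.

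The wider pathway was described with 45 further genes of homologous recombination, the Fanconi pathway and their checkpoint that were tested. With DIP 24 of these fell and 5 rose, at a median of -0.41 on the log2 scale, beside 21.0% lower and 24.5% higher of all genes tested. The largest falls were those of Rmi2, a subunit of the BLM dissolvase, by 4.00 (edgeR adjusted p = 7.33e-11), Dna2, a resection nuclease, by 3.47 (3.41e-11), and Rad51b, which acts with RAD51C in strand invasion, by 3.23 (1.55e-09). In 4T1 DOX 19 rose and 9 fell, with a median of 0.06, beside 34.3% higher and 35.6% lower of all genes tested. Faap100, a core complex subunit, fell by 1.54 on the log2 scale (edgeR adjusted p = 1.14e-11) and averaged 16.9 ± 1.08 CPM in 4T1 DOX against 48.2 ± 7.81 CPM in HC11 DOX. Faap24, the partner of FANCM, rose by 1.15 (edgeR adjusted p = 1.51e-07), and Fan1, a crosslink nuclease, fell by 1.03 (edgeR adjusted p = 1.07e-06).

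Genes of other repair pathways are given as counts, with no test between lists. Of all genes tested 21.0% were called lower and 24.5% higher with DIP, and 35.6% lower and 34.3% higher in 4T1 DOX. Among 19 end joining genes 10 fell and 2 rose with DIP. Polq, the polymerase of microhomology-mediated joining, fell by 3.58 and Parp1 by 1.63 on the log2 scale (edgeR adjusted p = 4.16e-08 and 1.09e-10), while Shld1, a subunit of shieldin, rose by 1.32 (edgeR adjusted p = 2.18e-06). Of 7 mismatch repair genes 5 fell and 1 rose, and of 16 base excision genes 7 fell and 2 rose, the glycosylase gene Neil3 furthest, by 4.75 (edgeR adjusted p = 7.78e-11). Of 14 nucleotide excision genes 6 rose and 3 fell, with a median of 0.23, led by the damage sensor gene Xpc, higher by 0.68 (edgeR adjusted p = 0.000196). In 4T1 DOX 7 end joining genes rose and 3 fell, 4 mismatch repair genes rose and 1 fell, 3 nucleotide excision genes rose and 6 fell, and 5 base excision genes rose and 8 fell. Such counts in lists this short, several of them near the share of all genes, are no result about the pathways. Ercc1, which pairs with ERCC4 in a nuclease that also serves crosslink repair, averaged 123 ± 5.71 CPM in 4T1 DOX and 20.2 ± 3.19 CPM in HC11 DOX, a rise of 2.58 on the log2 scale (edgeR adjusted p = 2.75e-15).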

How the data were processed

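Total RNA of cultured cells was extracted with TRIzol, and libraries were made with an NEBNext Ultra II kit after removal of ribosomal RNA, per the labels' protocols. Per the submitters' processing notes, the authors used fastp 0.23.2, featureCounts 2.0.1 and the build GRCm39; which aligner and which strand setting they used is not given in the sources used here. Deposited files hold raw whole-number counts per Ensembl gene for 1 library each, with totals of 134117581 to 222065843. Counts of a gene may therefore hold reads of an overlapping gene on the other strand, or lack reads from the shared bases. Neither was tested.

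Groups came from the cell line and treatment labels. Libraries are numbered within a group as names only. No library was a copy of another: within a group, chi-square divided by its degrees of freedom was at least 17.7. Some libraries were closer than others. Within HC11 DOX + DIP the value was 33.8 for libraries 7 and 9, 42.9 for 4 and 6, and up to 2360 for 2 and 10. Within HC11 DOX it was 51.1 for libraries 7 and 9, and up to 763 for 5 and 8. The tests took all libraries of a group as separate, and whether close libraries share a culture was not tested. Symbols, exon lengths and overlaps came from GENCODE vM21 and promoters from RefSeq GRCm38.p6, used for names, lengths and those sequences only. Of 201 list names 199 matched, and Hrob and Dss1 did not.

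Each comparison was fitted with edgeR 4.0.16 in R 4.3.3 on 2 groups, with filterByExpr, TMM factors, robust glmQLFit and glmQLFTest, and Benjamini-Hochberg adjustment over all genes tested. The standard error is the log2 fold change over the square root of F. For CPM the TMM factors were computed over all 28 libraries, with a prior count of 2 for log2 CPM. Ratios within a library used counts plus 0.5. The biological coefficient of variation was 0.409 for DIP and 0.301 for 4T1. Counts were also simulated with 200 genes changed in each comparison, far fewer than the 10837 called for DIP and 16688 for 4T1 in the data. Recovery and false calls in the data may therefore differ from those simulated. On simulated counts for DIP, with 23829 genes, 23.9% of genes changed 1.5-fold, 55.2% changed 2-fold and 89.4% changed 4-fold were recovered, with 5 false calls. For 4T1, with 23875 genes, these were 35.8%, 56.7% and 87.9%, with 3 false calls.

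The genes named were Brca1, Brca2, Atm, Atr, Chek1, Chek2 and Fancd2, the 6 largest rises and falls called in each comparison, members called against the majority, both genes of each called pair, and for the other lists called genes from among the 3 with the largest change at a mean log2 CPM of at least 0. The other members are given by mean, range or count, and overlapping genes were added after their values were seen. Members and lists were chosen with earlier results of these data known. Alternatives were DESeq2 1.42.0, limma voom 3.58.1, other scaling factors, no filter, 1 fit of all groups and libraries left out.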

Additional observations from a re-analysis of the deposited data

Results flagged for a closer look

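Each of the 36 genes was screened in each of the 3 groups for a library far from the others of its group, by the gap to the nearest library relative to the range of the group. Of 108 such sets 15 held one. For separate sets chance marks about 1 in 20, but these sets share libraries, so that rate cannot gauge the 15. In 12 of the 15 the library was HC11 DOX library 5. Values there were the lowest of the group for Brca1 at 14.8 CPM, Brip1 at 6.2 CPM, Brca2 at 9.17 CPM, Fancb at 3.36 CPM, Rad50 at 19.9 CPM and Nbn at 9.17 CPM. So were those for Rbbp8 at 16.2 CPM, Blm at 10.9 CPM, Atm at 6.32 CPM, Atr at 9.15 CPM and Chek1 at 7.91 CPM, and Fance was the highest of the group at 29.3 CPM. In that library the median log2 difference from the other HC11 DOX libraries was 0.18, 0.13, 0.11 and 0.00 for genes in 4 classes of exon length from short to long, and -0.10 for the 36 repair genes. Such a trend was not particular to library 5. Against their own groups, 4T1 DOX library 2 ran from 0.24 in the shortest class to -0.16 in the longest, and HC11 DOX + DIP library 10 from 0.18 to -0.15. HC11 DOX + DIP library 8 ran the other way, from -0.16 to 0.05. The part of transcript length was not tested. In HC11 DOX + DIP, library 1 was far below its group for Xrcc3 at 4.61 CPM and far above it for Nbn at 24 CPM. In 4T1 DOX, library 2 was far below its group for Mre11a at 80.3 CPM.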

How the results depend on the processing

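No paired analysis was possible because the labels give no replicate numbers. The count of repair genes called stayed at 30 to 32 for DIP and 20 to 27 for 4T1 under every alternative run, with 0 called higher for DIP. For 4T1 it was 20 in the fit of all 3 groups (15 higher, 5 lower), where 7456 of all 25563 genes were called higher and 8728 lower. In that fit Brca1, Bard1, Rad54l, Rad54b, Fancl, Exo1 and Chek2 lost their 4T1 calls (adjusted p 0.0733 to 0.234), and Nbn and Atm gained DIP calls (-0.39 and -0.56, adjusted p 0.0263 and 0.0328). Brca1 and Fancl also lost theirs with DESeq2, with its size factors in edgeR and with upper quartile factors (adjusted p 0.0567 to 0.076), and Chek2 without the filter on low counts (0.0513). The cause was not tested.

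Log2 fold changes that changed sign were near 0 and not called. Mus81 with DIP was 0.16 without DIP libraries 8 and 10, and -0.13 to 0.051 with each library left out in turn. For 4T1, Fancm was -0.025 without HC11 DOX library 5 and -0.025 to 0.20 with each library left out. Fanci was 0.02 without the filter and 0.006 without 4T1 libraries 1 and 2, and -0.06 to 0.009 with each left out. Clspn was -0.001 with DESeq2 or its size factors, -0.021 with upper quartile factors, and -0.082 without HC11 DOX library 5, with a range of -0.082 to 0.09 over libraries left out in turn. The log2 ratio difference of Brca1 to Bard1 for 4T1 was -0.136 without HC11 DOX library 5, and that of Eme1 to Mus81 was -0.004 without 4T1 libraries 1 and 2. Against the mean of the mitosis genes in place of the replication genes, the median difference of the repair genes with DIP was 3.42. At 134117581 or more counts per library the lowest count of any repair gene was 47 (Rad51ap1, DIP library 2), so depth limits the lowest DIP values most.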
